A study of Mus musculus with 54 samples.

Results

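Livers of mice labelled KO were compared with livers of mice labelled WT at a single time of day, ZT4, which is 4 h after lights on. The 6 libraries are the 3 KO and the 3 WT livers collected at that time, out of 54 liver libraries in the series (3 genotypes, 6 times of day 4 h apart, 3 livers in each of 18 groups). In KO mice the clock gene Bmal1, listed in the table as Arntl, is blocked by a STOP flanked by loxP sites. WT mice express it in all tissues, and in RE, the other mutant group, Syt10-Cre removes the STOP so that Bmal1 returns in the suprachiasmatic nucleus, the central clock of the brain. RE livers appear here as levels set beside the other groups, and they also enter the estimate of spread between livers behind every p-value. Strain, age, sex and feeding are not given in the labels, and nothing in them says whether livers of a group came from separate litters. The p-values therefore rest on the spread between livers within a group, estimated over all 54 libraries. Livers are named by genotype and column number (0, 1 or 2), which is not the replicate number of the sample titles.

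ARNTL protein pairs with CLOCK or NPAS2 and binds E-boxes, which switches on the Per, Cry, Nr1d and Dbp genes. PER and CRY proteins hold this pair back, and the receptors NR1D1 and NR1D2 (REV-ERBs) repress genes that the ROR receptors activate, Arntl and Npas2 among them. In liver the clock is known for timing the use of sugar, fat, bile acids and foreign compounds over the day.

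Values are FPKM, in which the fragments of a gene are divided by its transcript length and the size of the library, and differences are KO minus WT on the log2(FPKM + 1) scale, which understates changes of low genes. A gene is said to have risen or fallen in KO, or to be called, at an adjusted p under 0.05 in a limma fit over the 10932 genes whose mean FPKM reached 1 in any group. The table holds no counts, so the depth is unknown. Between 15028 and 15202 genes were above 0 in the 6 livers. The correlation over tested genes was 0.983 to 0.990 between livers of a genotype and 0.967 to 0.978 between genotypes. The SD between the 3 livers had a median over tested genes of 0.12 in WT and 0.14 in KO. The FPKM of all genes summed to 651035 to 667992 in WT livers and to 704263 to 751399 in KO livers. Alb, the hepatocytes' albumin gene, was listed at 0 in all 3 WT livers and at 10158 to 11980 in KO, so no fold is given for it. The Y-linked gene Eif2s3y was at 26.3 to 31.3 FPKM in the 6 livers, and Xist was at most 0.029. In bulk tissue, fewer cells of a type and less RNA per cell cannot be told apart.

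At ZT4, 1251 of the 10932 genes differed between KO and WT, or 11.4%. Of these, 826 (7.56% of those tested) rose and 425 (3.89%) fell in KO. Most changes were small: the median size among the called genes was 0.53, and 99 genes rose and 90 fell by 1 or more. The median difference over all tested genes was 0.01. In 1211 of the called genes the 3 KO values lay wholly above or below the 3 WT values, as they did in 3706 of the 10932 tested genes. The calls were made on the same values, so this count is no separate evidence. The count moved with single livers: it was 679 without WT liver 0, 700 without WT liver 2 and 683 without KO liver 0, and 465 genes were called whichever liver was left out.

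**Figure D1:**
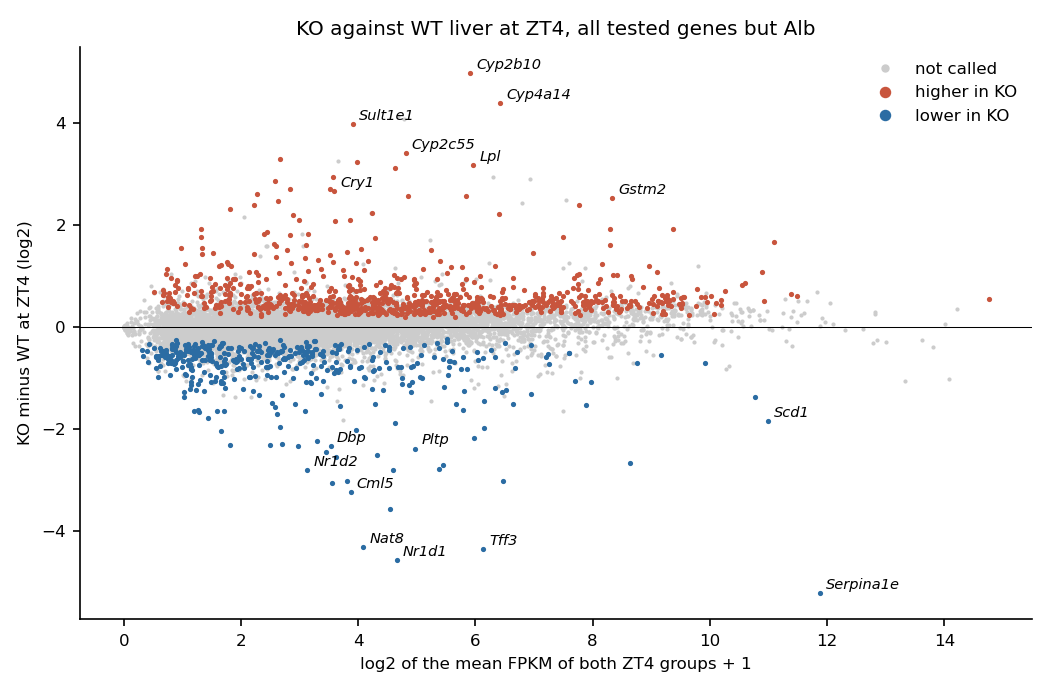
Difference between KO and WT liver at ZT4 (vertical axis, log2) against the mean level of the 6 livers (horizontal axis, log2 of FPKM + 1), 1 point per tested gene, with Alb left out because it is listed at 0 in WT. Red points are the genes that rose in KO and blue points those that fell; Cyp2b10 and Cyp4a14 lie highest and Serpina1e and Nr1d1 lowest.

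Arntl itself was at 5.57, 2.54 and 1.39 FPKM in WT livers 0, 1 and 2 and at 11.9, 12.4 and 13.4 in the livers labelled KO. Every KO liver was above every WT liver, and the difference was 1.83 (SE 0.17, adjusted p = 2.47e-10). Transcript of the targeted gene was thus not lower under the KO label. The labels do not place the STOP within the gene, so this FPKM does not check the knockout, and KO means the livers labelled so throughout. The RE livers were at 13.1, 13.3 and 13.3.

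Of the 19 core clock genes, all tested, 6 rose, 6 fell and 7 were not called at ZT4, beside 7.56% and 3.89% of all tested genes that rose and fell. Among the activators, Npas2, the partner that can stand in for CLOCK, was at 0.65, 0.389 and 0.0125 FPKM in WT and at 5.30, 8.71 and 7.84 in KO. Npas2 was near absent in WT liver 2 and present in every KO liver, with a difference of 2.62 (SE 0.23, adjusted p = 5.26e-11). Clock itself overlapped between the groups, at 4.26 to 5.39 in WT and 4.07 to 5.71 in KO (difference −0.04, adjusted p = 0.914).

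The REV-ERB receptors lost most of their transcript. Nr1d1 was at 45.1, 45.4 and 51.8 FPKM in WT and at 0.968, 1.49 and 0.724 in KO, a difference of −4.57 (SE 0.23, adjusted p = 2.82e-18). Nr1d2 was at 12.8, 11.4 and 18.7 in WT and at 0.908, 1.37 and 1.25 in KO, a difference of −2.79 (SE 0.22, adjusted p = 2.77e-12). For both receptors the lowest WT liver was far above the highest KO liver. Rora, an activator that opposes them, overlapped between the groups (6.04 to 7.21 in WT, 4.40 to 6.32 in KO; adjusted p = 0.368).

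The repressors went different ways. Cry1, whose product blocks the activator pair, was at 3.12, 2.69 and 1.2 FPKM in WT and at 16.1, 22.3 and 20.7 in KO. All KO livers were above all WT livers, by 2.67 (SE 0.22, adjusted p = 5.57e-12). Its paralogue Cry2 rose by 0.59 (adjusted p = 0.00592), from 7.76 to 8.69 in WT to 11.3 to 13.7 in KO. Ciart, a repressor also called Chrono, was low in both groups, at 0.639, 0.799 and 1.35 in WT and at 0.208, 0.150 and 0.0328 in KO. The groups did not overlap and the difference was −0.76 (SE 0.16, adjusted p = 0.00102). Bhlhe41 (DEC2), which competes for E-boxes, fell by 0.56, from 0.192, 0.527 and 0.808 in WT to at most 0.026 in KO (adjusted p = 0.000948); on the 6 livers alone the adjusted p was 0.0646. Its relative Bhlhe40 was at 31.5 to 42.8 in WT and 22.8 to 28.2 in KO and was not called (−0.58, adjusted p = 0.172).

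Of the Per genes, whose products form the repressor complex with CRY, Per1 was not called: the WT livers were at 1.43, 0.960 and 1.5 FPKM and the KO livers at 2.30, 2.53 and 0.583. KO liver 2 was lowest of the 6 for Per1 and the other two KO livers were highest. Per2 also overlapped between the groups (1.39 to 1.98 in WT, 1.31 to 2.15 in KO; adjusted p = 0.878). Per3 fell by 0.47 (adjusted p = 0.0195), from 0.642, 1.09 and 1.79 to 0.512, 0.609 and 0.467. That call ended without WT liver 2 (adjusted p = 0.248), KO liver 0 (0.0655) or KO liver 2 (0.0634), and on the 6 livers alone (0.15).

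Among the PAR bZIP factors, which carry the clock's timing to metabolic genes through D-boxes, only Dbp was called. Dbp ranged widely in WT, at 7.40, 18.5 and 30.2 FPKM in livers 0, 1 and 2, and was at 2.67, 2.72 and 1.95 in KO. The lowest WT liver was still above all KO livers, and the difference was −2.33 (SE 0.27, adjusted p = 3.73e-08). Tef was at 14.5 to 27.2 in WT and 15.7 to 20.8 in KO (adjusted p = 0.636), and Hlf at 6.15 to 8.44 and 6.46 to 8.66 (adjusted p = 0.967). Nfil3 (E4BP4), the repressor that competes at the same D-boxes, rose by 0.83 (adjusted p = 0.0403), from 13.5, 11.8 and 7.65 in WT to 19.0, 18.8 and 21.7 in KO. The call for Nfil3 was close to the threshold: it ended on the 6 livers alone, with no filter, and without WT liver 1, WT liver 2 or any 1 KO liver, with adjusted p of 0.0501 to 0.233 in these fits.

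**Figure D2:**
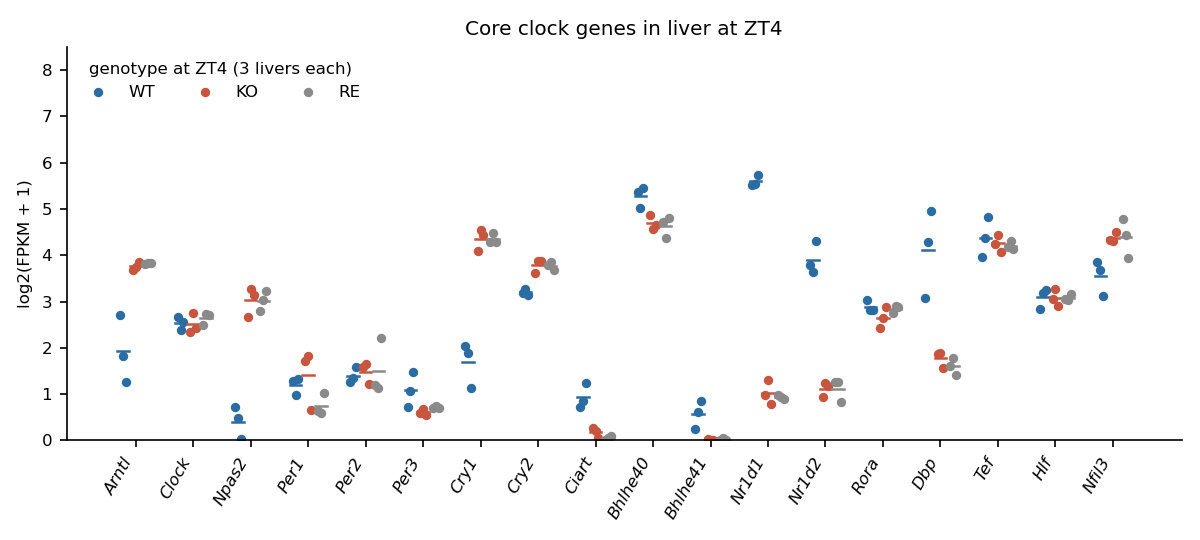
Level of 18 core clock genes in each liver at ZT4 (vertical axis, log2 of FPKM + 1), 3 livers per genotype as points and their mean as a short line, for WT, KO and RE. Nr1d1, Nr1d2, Dbp, Ciart and Bhlhe41 lie lower and Arntl, Npas2 and Cry1 higher in KO and in RE than in WT.

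Levels in RE at ZT4, set beside the other groups with no test, were near those of KO for the clock genes Nr1d1, Cry1 and Dbp. Nr1d1 was at 0.844 to 0.962 FPKM in RE, Cry1 at 18.6 to 21.2 and Dbp at 1.66 to 2.42. In each of these the RE livers lay outside the WT range. Some other genes with large differences were not as near to KO. Serpina1e was at 2927, 2096 and 284.5 FPKM in RE livers 0, 1 and 2, against 430, 157 and 102 in KO. Cyp4a14 was at 21.0, 10.8 and 68.2 in RE, against 90.2, 272 and 126 in KO.

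The promoters of 4 clock genes that moved differently at ZT4 are shown because they carry the elements through which the loop is known to work. Each line gives the 180 bases before the RefSeq start, 5′ to 3′ on the gene's strand, on GRCm38.p6 (the mm10 assembly). Capitals mark an E-box (CACGTG), a D-box (TTATGNAA) or a ROR element (TAGGTCA), each searched on both strands. Ciart, which fell, lies at chr3:95882229-95882408 on the minus strand. Cry1, which rose, lies at chr10:85185055-85185234 on the minus strand. Nfil3, which rose, lies at chr13:52981040-52981219 on the minus strand, and Per1, which was not called, at chr11:69098769-69098948 on the plus strand.
Ciart: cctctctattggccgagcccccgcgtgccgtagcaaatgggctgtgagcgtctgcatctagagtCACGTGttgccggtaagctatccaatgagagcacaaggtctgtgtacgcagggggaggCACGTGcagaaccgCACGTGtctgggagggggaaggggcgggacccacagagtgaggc
Cry1: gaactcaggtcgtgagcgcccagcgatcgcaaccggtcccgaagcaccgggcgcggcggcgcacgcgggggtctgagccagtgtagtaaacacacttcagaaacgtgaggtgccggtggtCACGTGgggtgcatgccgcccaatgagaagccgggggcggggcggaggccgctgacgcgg
Nfil3: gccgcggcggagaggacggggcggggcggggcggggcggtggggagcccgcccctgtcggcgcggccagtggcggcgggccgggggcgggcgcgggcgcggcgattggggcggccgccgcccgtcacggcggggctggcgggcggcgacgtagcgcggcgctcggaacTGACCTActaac
Per1: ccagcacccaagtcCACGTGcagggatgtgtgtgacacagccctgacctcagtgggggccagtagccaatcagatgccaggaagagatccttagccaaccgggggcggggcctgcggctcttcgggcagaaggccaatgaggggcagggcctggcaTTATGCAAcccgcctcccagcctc

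In the Ciart promoter, E-boxes began 116, 58 and 44 bases before the start. In Cry1 an E-box began 60 bases before it. In the first of 2 Per1 promoters an E-box began 166 bases and a D-box 24 bases before it. In Nfil3 a ROR element, read on the opposite strand as TGACCTA, began 12 bases before it. These matches describe the letters only. Over windows from 250 bases before to 50 after the start, an E-box was present in 7.15% of all 32851 RefSeq promoters, in 10.2% of those of tested genes, in 11% of those of genes that rose and in 9.25% of those of genes that fell. The D-box shares in the same order were 3.39%, 2.27%, 1.36% and 4.63%, and the ROR element shares were 2.61%, 2.23%, 2.97% and 3.08%. Of the 21 promoters listed for 16 core clock genes, 6 held an E-box. The windows of Nr1d1, Nr1d2, Dbp, Npas2 and Cry2, all called at ZT4, held none of these elements. Both windows of Tef, which was not called, held an E-box.

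The difference at ZT4 was also set against the mean difference at the other 5 times, which come from 30 other WT and KO livers. A gene called by this contrast can still differ as much at a single other time. This contrast was called for 79 genes, or 0.723% of those tested, 64 with a more positive and 15 with a more negative difference at ZT4, and 41 of the 79 also differed between KO and WT at ZT4 itself. The contrast depended on several livers: without WT liver 0, 9 genes were called, all among the 79, and 25 were called without KO liver 1, 30 without KO liver 0 and 51 without WT liver 2. Of the 1251 genes called at ZT4, 94.3% had a mean difference of the same sign at the other times, beside 69.5% of all tested genes. The genes that rose had a median difference of 0.50 at ZT4 and 0.25 at the other times, and those that fell had −0.63 and −0.42. The ZT4 medians were taken over genes chosen for their difference at ZT4.

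Of the core clock genes, 5 of 19 differed by this contrast. Nr1d1 had WT means of 6.51, 47.5, 41.0, 9.14, 1.04 and 0.878 FPKM at ZT0, ZT4, ZT8, ZT12, ZT16 and ZT20, and KO means of 0.649 to 1.07. Its WT level was highest at ZT4 while KO stayed low. The difference there was 2.71 more negative than the mean of the other times (adjusted p = 1.98e-09). Cry1 was lowest in WT at ZT4 and ZT8 (9.998, 2.34, 2.42, 5.99, 12.8 and 18.4), against 19.0 to 21.9 in KO, and its difference was 1.49 more positive at ZT4 (adjusted p = 0.000548). For both genes the call held whichever ZT4 liver was left out. At ZT8 alone the difference was −4.52 for Nr1d1 and 2.59 for Cry1, beside −4.57 and 2.67 at ZT4.

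Ciart peaked later in WT, with means of 0.112, 0.929, 8.51, 14.2, 2.85 and 0.902 FPKM, and stayed at 0.130 to 0.319 in KO. Its difference at ZT4 was 1.00 less negative than the mean of −1.755 at the other times (adjusted p = 0.00158). With a pseudocount of 0.1 this contrast was not called (adjusted p = 0.453). Ciart differed by 0.15 at ZT0 and −0.54 at ZT20, beside −0.76 at ZT4. For Per3 the difference at ZT4 was 0.62 less negative than the mean of −1.10 at the other times (adjusted p = 0.0356). Per3 differed by 0.48 at ZT0 and −0.42 at ZT20, beside −0.475 at ZT4. Its contrast had an adjusted p of 0.36 without WT liver 0 and 0.0622 without WT liver 1. Without KO liver 0 the adjusted p was 0.0885, and without KO liver 1 it was 0.147. Gys2, the liver's glycogen synthase, was at 51.8, 58.7 and 71.3 at ZT4 in WT and at 34.8, 38.4 and 38.0 in KO. It fell by 0.68 at ZT4 (adjusted p = 0.00111), where its difference was 0.85 less negative than the mean of −1.54 at the other times (adjusted p = 0.00441; 0.0687 without WT liver 0). At ZT0 alone the Gys2 difference was −0.47, beside −0.68 at ZT4. Tspan4, a tetraspanin membrane protein, did not differ by the test at ZT4 itself (adjusted p = 0.327). It was at 23.3, 22.9 and 34.2 in WT and at 37.3, 26.4 and 30.2 in KO at ZT4. The groups overlapped, while over the other times its mean difference was −0.71, and the contrast was 0.94 (adjusted p = 0.00141). At ZT0 alone the Tspan4 difference was −0.05, beside 0.23 at ZT4.

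**Figure D3:**
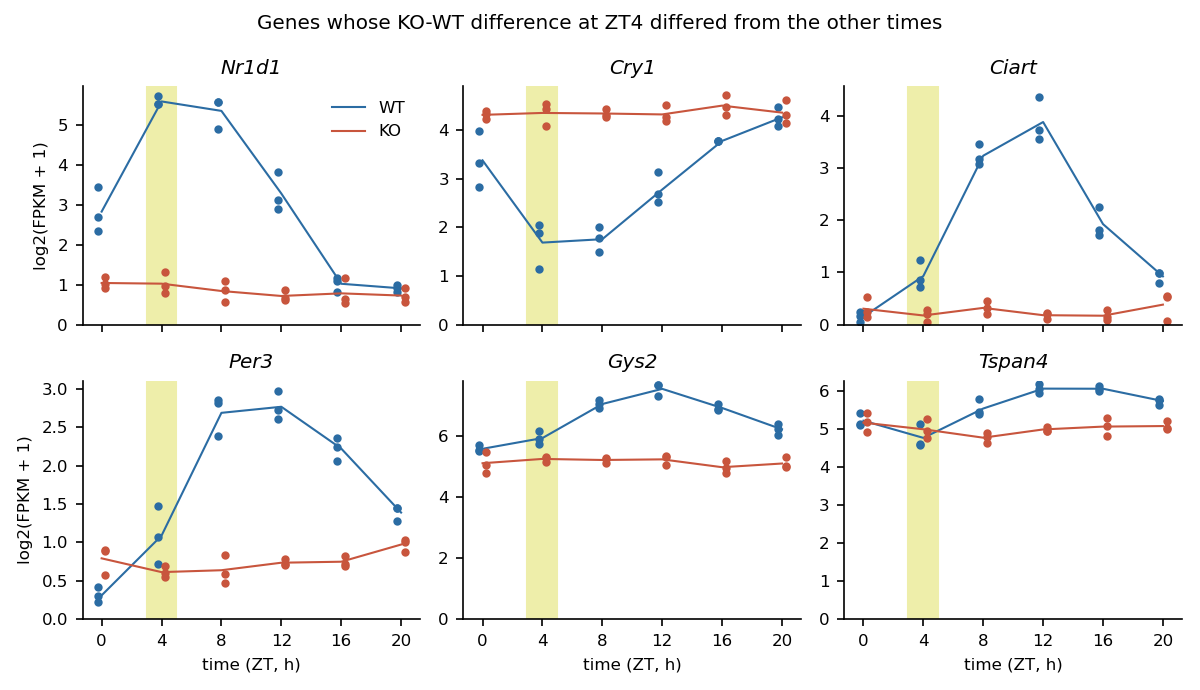
Levels of Nr1d1, Cry1, Ciart, Per3, Gys2 and Tspan4 (vertical axes, log2 of FPKM + 1) over the 6 times (horizontal axis, ZT in hours), with 1 point per WT or KO liver, lines through the group means and ZT4 shaded. At ZT4 the WT and KO points are far apart for Nr1d1 and Cry1 and overlap for Tspan4.

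Among the largest falls outside the clock was that of Nat8, an N-acetyltransferase of the route to mercapturates. It was at 27.2, 41.5 and 25 FPKM in WT and at 1.01, 0.470 and 0.385 in KO. All KO livers were near the floor (difference −4.30, SE 0.24, adjusted p = 4.92e-17). Its relative Cml5 fell by 3.23 (SE 0.49, adjusted p = 1.30e-05), from 20.1 to 30.4 in WT to 1.25 to 2.26 in KO. Tff3, a secreted trefoil peptide, varied in WT, at 218, 45.5 and 138, and was at 4.78, 7.48 and 2.42 in KO (−4.35, SE 0.78, adjusted p = 0.000173). It is a member of the gut epithelium marker list, of which no other tested gene was called, and the gut gene Reg3b was at most 0.184 in the 6 livers.

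Serpina1e, an α1-antitrypsin gene that shares sequence with its Serpina1 neighbours so that the division of reads among them is uncertain, was at 9406, 5401 and 7002 FPKM in WT and at 430, 157 and 102 in KO. The groups were far apart (−5.21, SE 0.80, adjusted p = 1.41e-05). Mup8, one of the closely alike major urinary protein genes, fell by 3.05 (adjusted p = 3.99e-05) with the same uncertainty. Rgs16, a brake on G-protein signalling, was at 15.7, 4.38 and 54 in WT and at 0.602, 0.503 and 2.87 in KO. WT liver 2 was highest, and the fall of 3.02 (adjusted p = 0.011) was not called without it (adjusted p = 0.131), without KO liver 0 (0.056), with a pseudocount of 0.1 (0.0636) or on the 6 livers alone (0.0735). Serpina4-ps1, a pseudogene, fell by 3.55 (adjusted p = 0.0239), and was not called without WT liver 0 (0.0823), WT liver 2 (0.0981) or KO liver 1 (0.105).

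The largest rise, Alb aside, was that of Cyp2b10, the classic target of the xenobiotic receptor CAR, at 2.36, 3.72 and 1.56 FPKM in WT and 99.8, 174 and 73.0 in KO. The difference was 4.99 (SE 0.52, adjusted p = 4.32e-09) with no overlap. Sult1e1, the oestrogen sulphotransferase, was at most 0.37 in WT and at 19.4, 59.3 and 4.62 in KO. The KO livers spread widely but lay above WT (3.99, SE 0.79, adjusted p = 0.000622). Lpl, the lipoprotein lipase that is low in adult liver, was at 12.8, 6.29 and 13.4 in WT and at 95.6, 60.3 and 181 in KO. Its rise of 3.18 (SE 0.27, adjusted p = 2.62e-11) was large, and its mean difference over the other times was 4.41.

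Most of the other large rises held whichever liver was left out. Spink1, a trypsin inhibitor, rose by 3.25 (adjusted p = 0.000866), from 0.695 to 3.17 FPKM in WT to 10.7 to 38.0 in KO. Raet1d, a ligand of the NKG2D receptor of lymphocytes, rose by 3.14 (adjusted p = 1.98e-08), Serpinb1a, an inhibitor of neutrophil proteases, by 2.96 (adjusted p = 3.75e-06), and Slc34a2, a phosphate carrier, by 2.86 (adjusted p = 1.57e-05). Grk5, a receptor kinase, was at 3.03, 1.78 and 1.27 in WT and at 16.6, 15.6 and 24.1 in KO (2.72, SE 0.26, adjusted p = 2.27e-10). Cyp4a14, a fatty acid hydroxylase, rose by 4.40 (SE 1.37, adjusted p = 0.0315), from 1.95, 12.4 and 7.53 to 90.2, 272 and 126. The groups of Cyp4a14 did not overlap, yet the call ended with no filter (0.0541) and without any 1 of the 6 livers except WT liver 1 (adjusted p 0.0597 to 0.148).

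**Figure D4:**
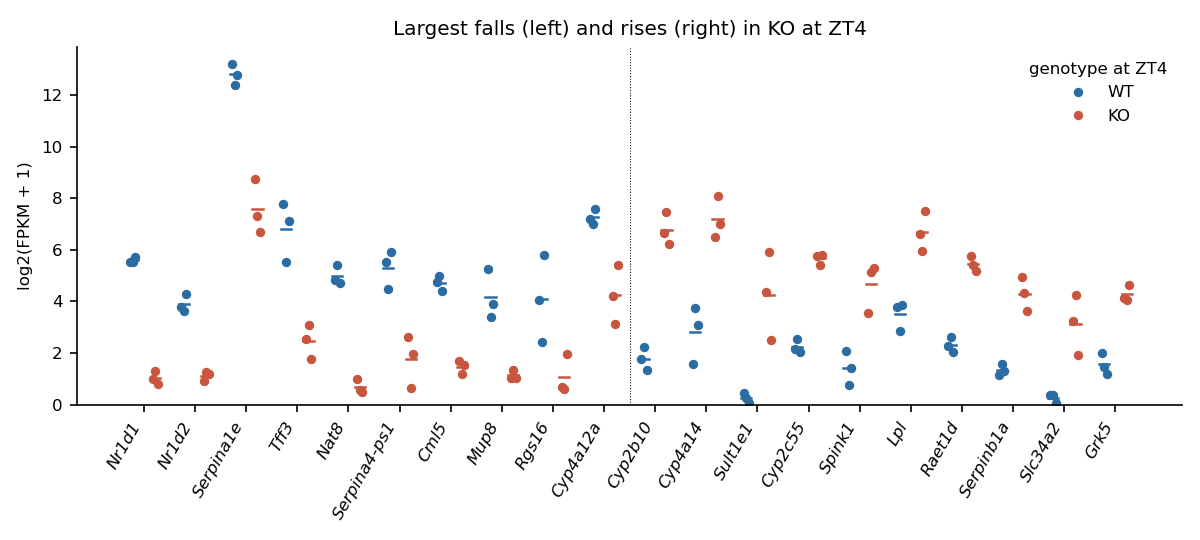
Level in each WT and KO liver at ZT4 (vertical axis, log2 of FPKM + 1) of the 10 largest falls, left of the dotted line, and the 10 largest rises, right of it, among called genes with a group mean of at least 5 FPKM. Points are livers and short lines their means; the groups do not overlap for any of the 20 genes.

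Gene lists are described by how many tested members were called, to be read beside the 7.56% of all genes that rose and the 3.89% that fell. In fatty acid and triglyceride synthesis, 5 of 23 fell and none rose, with a median difference of −0.58. Scd1, the desaturase that makes oleate, was at 2974, 3834 and 2692 FPKM in WT and at 847, 654 and 1212 in KO. Every KO liver was below every WT liver (−1.84, SE 0.49, adjusted p = 0.0109; 0.0568 without KO liver 1). Fads2, the Δ6-desaturase, fell by 1.07 (SE 0.20, adjusted p = 0.000242), from 328 to 354 in WT to 145 to 172 in KO. Me1, which supplies NADPH, fell by 1.26 (adjusted p = 0.0308) and Gpam, which starts glycerolipid synthesis, by 1.14 (adjusted p = 0.0325). Both calls ended with no filter and without any 1 liver except KO liver 2 (adjusted p 0.0525 to 0.144). The count of falls in the list was 1 to 6 with 1 liver left out, 2 without any 1 WT liver or KO liver 0, and 1 without KO liver 1. Acaca, the committed step, was at 15.6 to 16.1 in WT and 8.53 to 15.4 in KO and was not called (−0.42, adjusted p = 0.321).

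In cholesterol synthesis and uptake, 1 of 25 genes was called: Stard4, a sterol carrier, fell by 0.84 (adjusted p = 0.0133; 0.105 without WT liver 2, 0.0817 without KO liver 1 and 0.0522 on the 6 livers alone). In bile acid synthesis and transport 1 of 22 was called. That gene was Klb, the co-receptor of the FGF15 signal, which fell by 0.69 (adjusted p = 0.0265; not called without WT liver 2, KO liver 0 or KO liver 2, or on the 6 livers alone, at 0.0736 to 0.17). Cyp7a1, which sets the rate of bile acid synthesis, varied within both groups, at 7.17, 30.2 and 41.6 in WT and 53.5, 105 and 15.8 in KO (adjusted p = 0.213).

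Of 28 genes of PPARα, fat oxidation and ketogenesis, 3 rose and 3 fell (median 0.05), and 1 rose without WT liver 0 or KO liver 1. Fgf21, the fasting hormone of the liver, was at 4.05, 2.23 and 4.45 FPKM in WT and at 0.786, 0.486 and 0.108 in KO. It was lower in every KO liver (−1.64, SE 0.41, adjusted p = 0.00608). Cd36, a fatty acid carrier, rose by 1.55 (SE 0.39, adjusted p = 0.00732), from 6.72 to 8.43 to 18.6 to 26.2. Cpt1a, the gate of mitochondrial oxidation, overlapped between the groups (74.6 to 81.4 in WT, 42.3 to 83.0 in KO; adjusted p = 0.423).

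Of 20 genes of apolipoproteins and lipoproteins, 5 rose and 2 fell (median 0.20), with 4 or 5 rises and 1 or 2 falls when 1 liver was left out. Besides Lpl, hepatic lipase (Lipc) rose by 0.97 (SE 0.13, adjusted p = 5.98e-07), from 133 to 147 FPKM in WT to 255 to 283 in KO. Scarb1, the HDL receptor, rose by 0.73 (adjusted p = 0.000692). Pltp, which moves phospholipid between lipoproteins, was at 39.7, 62.6 and 52.6 in WT and at 10.1, 8.15 and 8.75 in KO. It was lower in every KO liver (−2.38, SE 0.40, adjusted p = 6.44e-05).

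None of 17 genes of gluconeogenesis and fasting was called at ZT4. Pck1, the key enzyme, was at 696, 437 and 502 FPKM in WT and 348, 643 and 263 in KO, with overlap (adjusted p = 0.581). Of 16 genes of glycogen and glucose entry, 3 rose and 2, Gys2 among them, fell, and 1 rose and 1 fell without WT liver 2. Gckr, which holds glucokinase in the nucleus, rose by 0.70 (SE 0.12, adjusted p = 6.56e-05), from 60.1 to 70.4 to 103 to 111. Pfkl, liver phosphofructokinase, rose by 0.43 (adjusted p = 0.00636; 0.0602 without WT liver 2). In the insulin and FOXO list, 1 of 18 was called: Mtor, the growth kinase, fell by 0.40 (adjusted p = 0.00512).

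Of 31 genes of amino acid breakdown and the urea cycle, 10 rose, none fell and 21 were not called; 28 had a positive difference, and the median was 0.42. With 1 liver left out 7 to 12 rose. In tyrosine breakdown, Hpd was at 960, 1361 and 1001 FPKM in WT and at 2075, 1984 and 1949 in KO (0.87, SE 0.18, adjusted p = 0.000866). Hgd, the next enzyme of that route, rose by 0.69 (SE 0.13, adjusted p = 0.000297), from 448 to 606 to 789 to 833. Bckdhb, a subunit of the branched-chain ketoacid dehydrogenase, rose by 0.61 (adjusted p = 2.50e-05) and Gpt, alanine transaminase, by 0.75 (adjusted p = 0.00113). For these 4 enzymes no WT liver reached the lowest KO liver. Cps1, the entry to the urea cycle, was at 777 to 818 in WT and 813 to 1030 in KO and was not called (adjusted p = 0.38).

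Of 31 tested cytochrome P450 genes of families 1 to 3, which oxidise drugs and steroids, 8 rose, none fell, and the median was 0.38. After Cyp2b10, Cyp2c55 rose most, from 3.40, 4.88 and 3.15 FPKM in WT to 53.7, 41.6 and 55.3 in KO. The groups were far apart (3.42, SE 0.37, adjusted p = 8.13e-09). Cyp2c29 rose by 1.68 (SE 0.32, adjusted p = 0.000359), from 774 to 1196 in WT to 2643 to 3893 in KO, and Cyp3a59 by 1.48 (adjusted p = 0.000236). Cyp2c and Cyp3a genes have close copies, so the division of reads among them is uncertain. Of 16 genes of haem supply and xenobiotic receptors, 1 rose, Uros (0.44, adjusted p = 0.0123; 0.0573 without WT liver 0, 0.0678 without WT liver 2 and 0.0614 without KO liver 0). Alas1, the rate-limiting enzyme of haem synthesis, varied widely, at 13.8, 50.4 and 64.2 in WT and 179, 130 and 13.6 in KO. KO liver 2 and WT liver 0 were both low and the groups overlapped (adjusted p = 0.511).

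In phase II conjugation, 10 of 38 genes rose and 3 fell, while the median was −0.02. The rises included several mu-class glutathione transferases, which share sequence. Gstm2 was at 81.5, 131 and 71.9 FPKM in WT and at 668, 526 and 440 in KO (2.54, SE 0.22, adjusted p = 3.61e-11). Gstm3 rose by 2.41 (SE 0.30, adjusted p = 3.00e-07) and Gstm6 by 1.62 (SE 0.15, adjusted p = 1.60e-10). All KO livers exceeded all WT livers for these 3 genes, and the list had 10 rises whichever liver was left out. In the NRF2 and antioxidant list, 1 of 19 rose and 1 fell. Prdx1, a peroxiredoxin, rose by 0.43 (adjusted p = 0.00252), and G6pdx, which makes NADPH, fell by 0.76 (adjusted p = 0.0403; not called with no filter, on the 6 livers alone or without WT liver 0, WT liver 2, KO liver 0 or KO liver 1, at 0.0592 to 0.163).

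Among 19 genes of NAD synthesis and use, 2 rose and 1 fell, and 1 rose whichever liver was left out. Nnmt, which methylates nicotinamide, was at 69.8, 125 and 55.1 FPKM in WT and at 339, 292 and 197 in KO. All KO livers were above WT (1.77, SE 0.42, adjusted p = 0.00368). Nampt, the rate-limiting enzyme of NAD salvage, was at 9.74, 9.40 and 14.2 in WT and at 7.06, 7.33 and 7.5 in KO. It fell by 0.53 (adjusted p = 0.03), and was not called without WT liver 2 (0.243), KO liver 0 (0.0976), KO liver 1 (0.0642) or KO liver 2 (0.0558), or on the 6 livers alone (0.0858).

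All 36 cytosolic ribosomal protein genes had a positive difference at ZT4, from 0.33 to 0.61 with a median of 0.42, and 18 of them were called. Rpl14 was at 252, 253 and 282 FPKM in WT and at 415, 350 and 410 in KO (0.58, SE 0.12, adjusted p = 0.00161). Rps7 rose by 0.61 (adjusted p = 0.00273) and Rpl3 by 0.52 (adjusted p = 0.00411). The count of rises was 5 without KO liver 0, 7 without WT liver 0, 8 without WT liver 1 and 9 without KO liver 2, and it was 15 after centring each library on its median ratio. The respiratory chain was alike: all 22 genes had a positive difference, with a median of 0.27, and 7 were called. Ndufs3, a subunit of complex I, was at 160, 175 and 154 in WT and at 244, 214 and 240 in KO (0.51, SE 0.12, adjusted p = 0.00335). The count was 2 without WT liver 0, WT liver 2 or KO liver 2, 3 without KO liver 0, 4 without KO liver 1, and 4 after centring. The FPKM sum of the libraries was also higher in every KO liver than in any WT liver. In KO livers 0, 1 and 2 the library sum was 751399, 717837 and 704263. Alb, listed at 0 in WT, made up 10616, 11980 and 10158 of these sums. In WT livers 0, 1 and 2 the library sum was 651035, 667992 and 667077. The summed FPKM of the ribosomal protein genes was 16532, 16906 and 18440 in WT and 26348, 21708 and 23029 in KO. That of the respiratory chain was 7329, 7806 and 7649 in WT and 9234, 8940 and 9383 in KO. The part of the library sum in these rises was not tested.

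Fewer members of related lists were called. In ribosome biogenesis 1 of 20 rose: Npm1, a nucleolar chaperone (0.45, adjusted p = 0.0244; not called without WT liver 0, WT liver 1, KO liver 0 or KO liver 2, at 0.0629 to 0.0911). In the proteasome 1 of 27 rose, Psmb7, by 0.24 (adjusted p = 0.0389; not called after centring, on the 6 livers alone or without any 1 liver except KO liver 1, at 0.0511 to 0.191). In autophagy 1 of 19 rose and 2 fell. Ulk1, the kinase that starts autophagy, was at 22.6, 21.2 and 22.7 FPKM in WT and at 10.9, 10.7 and 10.3 in KO. The values were tight in both groups (−0.99, SE 0.17, adjusted p = 6.39e-05). Sqstm1, the cargo receptor, fell by 0.51 (adjusted p = 0.00254).

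**Figure D5:**
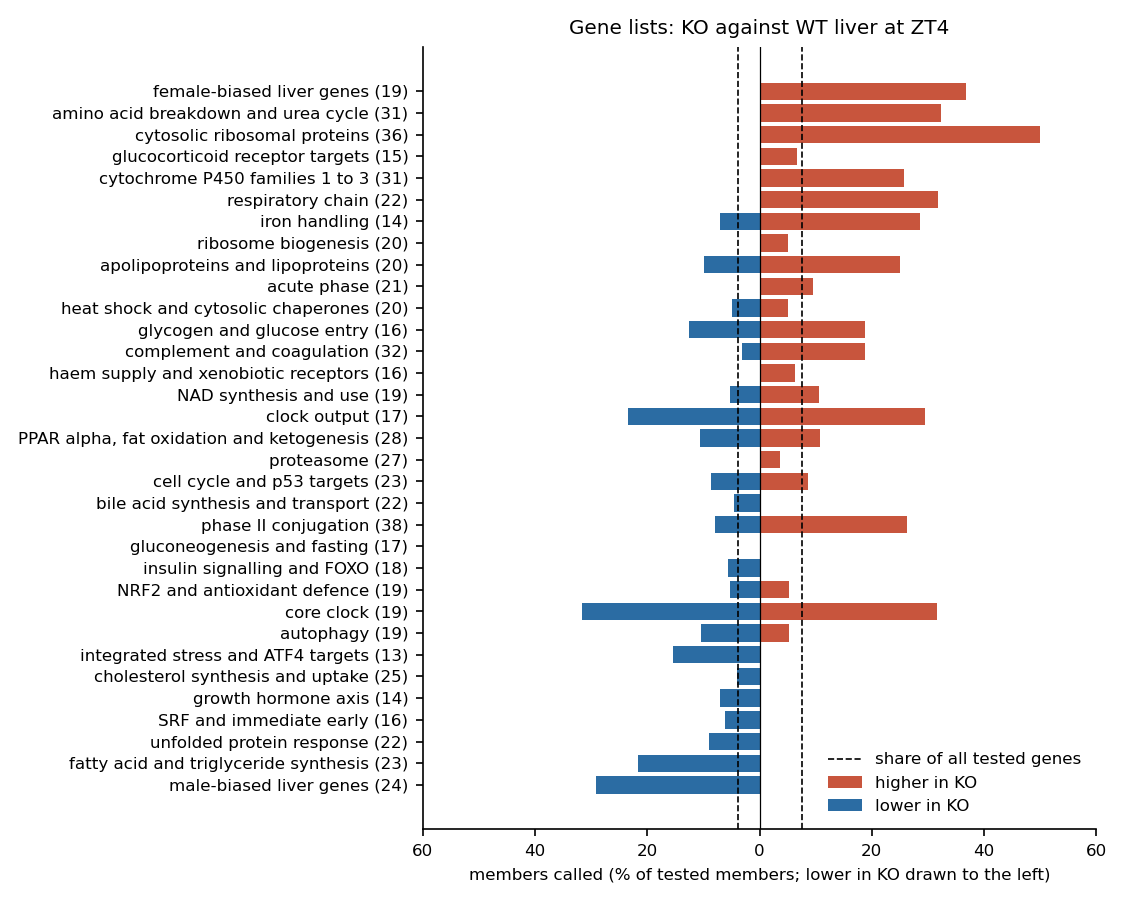
Share of tested members that rose (red, to the right) or fell (blue, to the left) in KO at ZT4, in percent, for pathway lists with at least 10 tested members (number in brackets), ordered by median difference. Dashed lines mark the shares among all tested genes, 7.56% and 3.89%; ribosomal proteins have the longest bar to the right and the core clock the longest to the left.

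Among plasma proteins, 6 of 32 genes of complement and coagulation rose and 1 fell. C3, the centre of the complement cascade, was at 1168, 989 and 1075 FPKM in WT and at 1843, 2275 and 1682 in KO (0.83, SE 0.16, adjusted p = 0.000558). Plg, plasminogen, rose by 0.71 (adjusted p = 4.85e-05), C9, of the membrane attack complex, by 1.08 (adjusted p = 0.00306), and F2, prothrombin, by 0.47 (adjusted p = 0.002). In the acute phase list 2 of 21 rose, the hyaluronan-binding proteins Itih3 (1.00, SE 0.15, adjusted p = 5.00e-06) and Itih4 (0.77, adjusted p = 0.000362). In iron handling 4 of 14 rose and 1 fell, and 2 rose without WT liver 0, WT liver 2, KO liver 0 or KO liver 1. Tmprss6, which holds hepcidin down, was at 192, 195 and 181 in WT and at 275, 271 and 258 in KO (0.50, SE 0.09, adjusted p = 0.000298). Hfe, which senses iron, rose by 0.46 (adjusted p = 0.00143). Slc40a1, the iron exporter ferroportin, fell by 0.98 (adjusted p = 0.0103; 0.0723 without WT liver 2 and 0.0778 without KO liver 2).

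Some genes that differ between the sexes in mouse liver were called, in livers that all had Y-linked transcript. Of 24 male-biased genes, 7 fell, none rose and 17 were not called, with 4 positive differences (median −0.79; 3 without WT liver 2 or KO liver 1 and 4 without WT liver 0). Cyp4a12a, an arachidonate hydroxylase of males, was at 144, 128 and 189 FPKM in WT and at 17.7, 7.71 and 40.9 in KO. The KO livers differed among themselves but all were below WT (−3.01, SE 0.71, adjusted p = 0.00383). Susd4, a complement regulator, fell by 1.70 (adjusted p = 0.00014), from 7.91 to 8.75 to 1.03 to 3.21. Of 19 tested female-biased genes, 7 rose, none fell and 12 were not called, with 13 positive differences (median 0.67), Sult1e1 and Cyp4a14 among them. Prlr, the prolactin receptor, was at 17.0, 22.3 and 16.0 in WT and at 56.5, 67.3 and 41.5 in KO (1.52, SE 0.25, adjusted p = 3.87e-05). Slco1a4, an organic anion carrier, rose by 1.75 (adjusted p = 0.00163) and Ntrk2, a neurotrophin receptor, by 2.21 (adjusted p = 9.52e-05). In the growth hormone axis 1 of 14 was called: Igf1 fell by 0.49 (adjusted p = 0.0331; not called with no filter or without WT liver 0, WT liver 2, KO liver 1 or KO liver 2, at 0.0502 to 0.143).

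The calls in lists of cellular stress genes were mostly falls. Of 13 genes of the integrated stress response, 2 fell: Asns, asparagine synthetase, was at 2.03, 2.80 and 2.63 FPKM in WT and at most 0.208 in KO (−1.63, SE 0.26, adjusted p = 2.07e-05), and Trib3, a pseudokinase, fell by 1.33 (adjusted p = 0.000801). In the unfolded protein response the median was −0.34, 1 of 22 genes had a positive difference, and 2 fell. They were Dnajc3 (−0.62, adjusted p = 0.0161) and Herpud1 (−1.23, adjusted p = 0.049), and neither was called without WT liver 0, WT liver 2 or KO liver 0 (adjusted p 0.0606 to 0.171); Herpud1 was also not called without KO liver 1 (0.122), KO liver 2 (0.0844) or the filter (0.0794), nor Dnajc3 on the 6 livers alone (0.0511). Of 20 heat shock genes and chaperones, 1 fell and 1 rose. Hspb1, a small heat shock protein, was at 13.1, 17.6 and 14.4 in WT and at 3.75, 1.39 and 2.48 in KO. It was lower in every KO liver (−2.22, SE 0.34, adjusted p = 1.13e-05). Hspe1, the mitochondrial co-chaperonin, rose by 0.49 (adjusted p = 0.0303; not called without WT liver 0, WT liver 2, KO liver 0 or KO liver 2, or on the 6 livers alone, at 0.0878 to 0.221). Of 16 SRF targets and immediate early genes, 1 fell, Junb, an AP-1 subunit, from 16.2 to 20.3 to 4.79 to 6.28 (−1.54, SE 0.33, adjusted p = 0.00128). Positive differences numbered 2 of 16 in that list, 4 of 13 in the integrated stress list and 16 of 20 in the heat shock list.

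Among 23 genes of the cell cycle and p53 targets, 2 rose and 2 fell, with 0 to 2 of each when 1 liver was left out. Ccnd1, cyclin D1, was at 8.91, 11 and 10.8 FPKM in WT and at 2.30, 2.57 and 4.17 in KO (−1.51, SE 0.40, adjusted p = 0.0112; 0.0622 without KO liver 0). Cdkn1a, the inhibitor p21, rose by 1.82, from 0.865 to 2.98 to 7.37 to 13.9 (adjusted p = 0.0101; 0.0917 without WT liver 2 and 0.0573 without KO liver 1). It was also the 1 called gene of 15 glucocorticoid receptor targets. In the clock output list 5 of 17 rose and 4 fell, with 1 to 5 rises and 1 to 4 falls when 1 liver was left out; both counts were 1 without WT liver 2. Of 7 genes of metallothioneins and zinc and 2 cold-inducible genes, none was called. The metallothionein and zinc list summed to 105 to 149 FPKM in WT livers. In KO livers 0, 1 and 2 it summed to 294, 1500 and 128. The glucocorticoid receptor targets summed to 985 to 1404 in WT and to 960, 2811 and 1006 in these KO livers.

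Markers of other liver cell types were checked beside these groups. None of 13 Kupffer cell and macrophage markers was called, but all 13 had a negative difference (median −0.44). Their summed FPKM was 188 to 274 in WT and 163 to 184 in KO, and Clec4f was at 24.7 to 34.0 and 19.2 to 21.1. All 11 tested markers of stellate cells and fibroblasts also had a negative difference with no call (median −0.57), with sums of 77.7 to 124 in WT and 53.3 to 70.7 in KO. Of 11 endothelial markers 1 rose, Stab2 (0.45, adjusted p = 0.0428; not called without WT liver 0, WT liver 2, KO liver 0 or KO liver 1, under several other settings and on the 6 livers alone, at 0.0508 to 0.224). Of the 11 endothelial markers 2 had a positive difference, and the median was −0.155. No marker of bile duct, lymphocytes, neutrophils, red cells, muscle or fat was called. The muscle gene Ckm was at 0 in all 6 livers. The red cell gene Hba-a1 ranged from 57.4 to 156 in WT and from 95.1 to 419 in KO. Of 2 tested pancreas markers, Cela1 rose by 1.19, from 21.8 to 32.4 to 63.1 to 69.2 (adjusted p = 0.0113; 0.0804 without WT liver 2). Among 14 pericentral and 12 periportal hepatocyte markers, 2 and 1 rose and none fell, with 0 to 3 and 0 to 2 rises when 1 liver was left out. Of 10 general hepatocyte markers, Alb aside, 1 was called, Cebpa, which is named here after its values were seen. It fell by 0.51 (adjusted p = 0.0112), from 163, 180 and 187 in WT to 139, 125 and 108 in KO, and was not called without WT liver 2 or KO liver 2. The part of cell composition in the differences above was not tested.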

How the data were processed

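RNA sequencing libraries of whole mouse liver were aligned to mm10 with TopHat, per the submitters' processing notes. How FPKM was computed, and on which annotation, is not given in the sources used here. In the table that the authors deposited are FPKM for 24346 gene symbols in 54 columns; they are already scaled and there are no counts, so depth per liver is unknown and precision rests on the spread between livers. Column numbers (0 to 2) and the replicate numbers of the titles (1 to 3) are different series, so columns were tied to groups and not to single samples.

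All fits used log2(FPKM + 1). Genes with a mean FPKM of at least 1 in any of the 18 groups were tested (10932; 13414 were not, of which 5619 were 0 everywhere). Means of the 18 groups were fitted over 54 libraries by limma 3.58.1 under R 4.3.3 (eBayes with a trend, 36 residual degrees of freedom, two-sided), tested on simulated data first, with Benjamini-Hochberg adjustment over all tested genes. The contrasts were KO minus WT at ZT4, and that difference minus the mean of the other 5.

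The genes described were the core clock; the 10 largest rises and falls with a group mean of at least 5 FPKM; the called genes of smallest adjusted p in each list, 4 at most; key enzymes; marker genes; and the 8 largest differences each way against the other times. Some genes that this rule selects are not reported here. Gene models, and 43 genes listed at 0 beside values above 5 FPKM, were not named, except Alb. The comparison, members and lists were chosen with earlier results of these data known. RefSeq promoters (GRCm38.p6) were matched by symbol. Alternatives were another pseudocount, other filters, centring, fewer libraries, no trend, library weights and leaving out each ZT4 liver.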

Additional observations from a re-analysis of the deposited data

Results flagged for a closer look

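For 17 of the genes described, the KO minus WT difference at ZT4 differed from the mean of the other 5 times by limma's test of that contrast. Among the clock genes the values were −2.711 for Nr1d1, 1.491 for Cry1, 0.9979 for Ciart and 0.6232 for Per3. Those of Nr1d1 and Cry1 were called in all settings tried, that of Ciart in all but the pseudocount of 0.1, and that of Per3 was lost without any of 4 livers and also with the pseudocount of 0.1 (adjusted p = 0.317), the filter at 5 FPKM (0.0673) and centring (0.0519). For Gys2 the contrast was 0.8521 and for Tspan4 it was 0.9369.

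In metabolic genes outside the clock, Hmgcs1, an early enzyme of cholesterol synthesis, gave −2.021 (adjusted p = 0.0474). It was at 295, 207 and 238 FPKM in WT and 376, 69.4 and 207 in KO at ZT4, with KO liver 1 lowest, while its mean difference at the other times was 1.55. The contrast for Hmgcs1 was not called without KO liver 1 (0.269), any of the WT livers (0.057 to 0.262) or KO liver 2 (0.0584). Lpl gave −1.235: its rise at ZT4 was smaller than at the other times (adjusted p = 0.0356; 0.111 without KO liver 0, 0.227 without KO liver 1, 0.262 without WT liver 0 and 0.169 without WT liver 2). Ak4, a mitochondrial adenylate kinase, gave 0.9566 (0.172 without WT liver 0, 0.0532 without WT liver 1, 0.139 without KO liver 1 and 0.0835 without KO liver 2). Nmrk1, a nicotinamide riboside kinase, gave 0.8689 (not called without WT liver 0, WT liver 1, KO liver 0 or KO liver 1, at 0.0853 to 0.173). The Nmrk1 difference was −0.02 at ZT0 alone, beside −0.07 at ZT4.

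Cars, the cysteinyl-tRNA synthetase, gave −0.6906. It was at 12.6, 11.3 and 12.0 FPKM in WT and 7.67, 6.26 and 6.25 in KO at ZT4, with no overlap, and its mean difference at the other times was −0.06 (adjusted p of the contrast 0.016; 0.135 without WT liver 0 and 0.0973 without KO liver 1). The Cars differences at the other times ranged from −0.58 at ZT0 to 0.40 at ZT16. Tns2, a focal adhesion protein, gave −0.6223 and Erlin1, of the endoplasmic reticulum membrane, −0.5841. Both fell at ZT4, by 1.31 and 1.06 on the log2 scale. At ZT8 alone the Tns2 difference was −1.42. Neither contrast was called without WT liver 0, WT liver 2 or KO liver 1 (0.0504 to 0.243). That of Erlin1 was also not called without KO liver 0 (0.0853).

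The remaining contrasts were 0.9708 for Fam195a, 0.8451 for Ngef, 0.7387 for Lonrf3 and −0.4393 for Stra6l. Those of Fam195a and Ngef were lost without WT liver 0 (0.138 and 0.0604), that of Stra6l without WT liver 0, WT liver 2, KO liver 0 or KO liver 1 (0.0512 to 0.298), and that of Lonrf3 without any 1 of the 6 livers (0.0501 to 0.151).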

How the results depend on the processing

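No paired analysis was possible because the columns carry no labelled replicate numbers. The count of 1251 genes called at ZT4 was 679 to 1138 with 1 liver left out (441 to 737 that rose, 225 to 401 that fell) and 2347 with library weights (1463 and 884). It was 1715 without the RE libraries. The filter at 5 FPKM gave 263 that fell. The contrast with the other times was called for 9 to 94 genes with 1 liver left out, for 148 on WT and KO libraries only and for 396 with library weights, against 79. The other settings kept each count within 1.5 times; the cause of these moves was not tested. The 6 ZT4 livers alone gave 943 calls and no contrast with the other times. The rule for choosing genes selected 107 that were called at ZT4, not all of them described here. Of these, 70 were called whichever liver was left out and 69 under all settings tried. No call changed sign in any setting. With 3 livers per group and no read counts, changes of genes below a few FPKM rest on few fragments, and genes that share sequence or are listed at 0 cannot be resolved.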

Other observations

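The 3 WT livers of ZT4 differed among themselves in several clock genes, a pattern chosen after the values were seen. WT liver 0 had the highest and WT liver 2 the lowest Arntl (5.57 and 1.39 FPKM), Npas2 (0.65 and 0.0125), Cry1 (3.12 and 1.2) and Nfil3 (13.5 and 7.65). The reverse held for Dbp (7.40 and 30.2), Tef (14.5 and 27.2), Ciart (0.639 and 1.35) and Per3 (0.642 and 1.79). The KO livers at ZT4 were closer to each other in Arntl, Dbp and Per3.

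KO liver 2 stood apart from the other two KO livers in Per1 (0.583 against 2.30 and 2.53 FPKM), in Alas1 (13.6 against 179 and 130) and in Arrdc3, an arrestin-like gene (40.5 against 3.10 and 5.25). KO liver 1 stood apart in the summed FPKM of the metallothionein and zinc list (1500 against 294 and 128). No cause of these differences was tested.

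Arntl lies on mouse chromosome 7. Of the tested genes within 2 Mb of it on either side, 1 of 11 was called at ZT4 (9.09%), within 5 Mb 7 of 38 (18.4%), within 10 Mb 13 of 93 (14.0%) and within 20 Mb 26 of 259 (10.04%), beside 11.4% of all tested genes.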
